A study of Mus musculus with 24 samples.

Results

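Complement genes were examined in RNA-seq of 3T3 mouse embryonic fibroblasts (MEFs), an immortalised connective-tissue cell line. The set was a list of 7 genes, C3, C4b, C1ra, C1s1, Cfb, Serping1 and Cd55, chosen by name from the 55471 genes counted. There were 24 libraries in 8 groups of 3: wild-type MEFs, Lkb1-/- MEFs and the Lkb1-/-/Crtc2-/- clones A1 and A2, each left untreated or given IL-1β for 6 h. Lkb1 (Stk11) encodes the kinase LKB1, and Crtc2 encodes a coactivator of CREB that LKB1 signaling through the SIK kinases keeps in the cytoplasm. The Crtc2 clones were single-cell CRISPR clones and also lacked Lkb1, so a difference between clone and parent genotype and a difference between cell lines cannot be told apart, and each genotype was likewise a single line. The labels did not say whether the 3 libraries of a group came from separate cultures, so the p-values measure the spread between libraries, which may be technical.

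Complement is a cascade of blood proteins that marks surfaces for removal. C1r and C1s are the proteases of the C1 complex that starts the classical pathway, and they cleave C4, which pairs with C2 to make an enzyme that cleaves C3. C3 is the point at which the classical, lectin and alternative pathways meet, and factor B (Cfb) forms the alternative pathway enzyme with C3b. C1 inhibitor (Serping1) blocks C1r and C1s, and CD55, or decay-accelerating factor, is anchored on the cell surface and breaks up the C3-cleaving enzymes. The liver makes most complement in plasma, while fibroblasts and other stromal cells make several components locally, C3 in particular being raised by inflammatory cytokines.

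The libraries held 38842901 to 48594394 counts on genes, with a median of 42431965. Stk11 read 83.4 to 87.9 counts scaled to library size (CPM) in the 6 wild-type libraries and 16.3 to 23.2 CPM in the other 18, which checked the Lkb1 labels. Crtc2 mRNA was still present in the clones, at 41.1 to 56.4 CPM against 79.1 to 84.6 CPM in Lkb1-/- MEFs. The 8 fibroblast markers summed to between 5351 and 9915 CPM, although Thy1 had at most 3 counts in any library. Hepatocyte markers summed to at most 0.896 CPM. The macrophage markers Ptprc, Adgre1 and Tyrobp had at most 1 count in any library, while the list of 7, carried by Cd14, Cd68 and Csf1r, summed to 11.8 to 14.4 CPM in untreated and 20.01 to 26.5 CPM in IL-1β-treated wild-type MEFs. The 4 endothelial markers summed to 0.370 to 0.678 CPM in wild-type libraries and 2.06 to 3.85 CPM in the others, mostly as Kdr. The 5 epithelial markers summed to 1.5 to 2.92 CPM in wild-type libraries and 0.110 to 1.26 CPM in the others.

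Of the 7 genes, 6 passed the filter on low counts. Untreated Lkb1-/- MEFs held more mRNA of 5 of these 6 than wild-type MEFs, and so did Lkb1-/- MEFs under IL-1β: C3, C4b, C1s1, Serping1 and Cd55. Across all 17522 genes tested, 30.1% were called higher in untreated and 30.2% in IL-1β-treated Lkb1-/- MEFs (edgeR quasi-likelihood test, FDR under 0.05). The median log2 fold change of the 6 genes was 3.82 untreated and 2.48 under IL-1β, against 0.04 and 0.03 over all genes. C4b, Cd55 and Serping1 passed the filter through groups in which they were higher than in untreated wild-type MEFs, so these counts and medians describe the list and are not a test of it.

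C3 had the highest level of the set in every group except untreated wild-type MEFs. Per kilobase of exon, mean C3 was 0.743 CPM in untreated wild-type and 30.3 CPM in untreated Lkb1-/- MEFs. C1ra was the highest in untreated wild-type cells, at 2.67 CPM per kilobase, and C1s1 stood at 0.590. In untreated Lkb1-/- MEFs the order after C3 was C1s1 at 4.66, C1ra at 3.96, Cd55 at 2.13, C4b at 0.574 and Serping1 at 0.0735 CPM per kilobase. C3, the central component, lies on chr17:57203970-57228136 (GRCm38, minus strand). The 250 bases before its RefSeq start are shown because C3 moved with both genotype and cytokine. Capitals in this and the other windows mark, on either strand, the letters of a κB-like motif (GGGNNNNNCC), a C/EBP-like motif (TTNNGNAA), a STAT-like motif (TTCNNNGAA) or a CRE half-site (TGACG), and adjoining or overlapping matches run together.

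C3, chr17:57228137-57228386, minus strand: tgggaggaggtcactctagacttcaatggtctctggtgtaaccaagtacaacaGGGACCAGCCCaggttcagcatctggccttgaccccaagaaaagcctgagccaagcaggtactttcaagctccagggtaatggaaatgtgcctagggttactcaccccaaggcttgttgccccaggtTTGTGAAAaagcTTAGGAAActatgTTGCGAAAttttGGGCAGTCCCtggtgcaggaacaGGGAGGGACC

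The C3 window held κB-like and C/EBP-like matches, the latter 70 to 38 bases before the start, and no match to the other 2 motifs. Of 27025 RefSeq promoter windows of this length, 45.4% held the κB-like, 36.9% the C/EBP-like, 17.9% the CRE and 7.18% the STAT-like letters, so these matches are common and are not evidence of a site.

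In untreated wild-type MEFs, C3 read 2.90, 3.73 and 4.83 CPM. In untreated Lkb1-/- MEFs it read 136, 172 and 159.8 CPM. All 3 knockout libraries lay far above all 3 wild-type libraries, and the increase was 5.36 on the log2 scale (SE 0.30, edgeR FDR 1.7e-12), a fold of 41.0. After IL-1β, wild-type cells read 28.8, 38.6 and 48.3 CPM and Lkb1-/- cells 275, 395 and 422 CPM. The treated wild-type libraries remained below every untreated Lkb1-/- library. The genotypes differed by 3.24 log2 units under IL-1β (SE 0.25, edgeR FDR 5.2e-10).

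IL-1β raised C3 in wild-type MEFs by 3.343 log2 units (SE 0.28, edgeR FDR 1.4e-07) and in Lkb1-/- MEFs by 1.22 (SE 0.23, edgeR FDR 0.0024). In CPM the means rose by 34.8 in wild-type and by 208 in Lkb1-/- cells, so the smaller fold went with the larger gain in reads. The fold responses differed by -2.12 log2 units, Lkb1-/- minus wild-type (SE 0.36, edgeR FDR 0.008). C3 was the 1 gene of the 6 called in this test, against 0.245% of all genes.

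Untreated C3 was also high in both Crtc2 clones. Clone A1 read 116, 156 and 138 CPM untreated and clone A2 78.0, 117 and 134 CPM, all above every wild-type library. The difference from untreated Lkb1-/- MEFs was -0.19 log2 units in A1 (SE 0.23, edgeR FDR 0.58) and -0.51 in A2 (SE 0.23, edgeR FDR 0.11). With no low-count filter the A2 difference had a similar size (log2 -0.53) but was called (edgeR FDR 1.8e-09). With IL-1β, A1 read 194, 249 and 256 CPM, below all 3 treated Lkb1-/- libraries, a fall of 0.65 (log2, SE 0.23, edgeR FDR 0.034). Treated A2 read 252, 364 and 478 CPM and spanned the Lkb1-/- range, with the same mean of 364 CPM. The A1 call was lost without Lkb1-/- IL-1β replicate 2 or 3 or A1 IL-1β replicate 1 or 2 (edgeR FDR 0.06 to 0.13), and with counts taken without regard to strand (edgeR FDR 0.054).

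IL-1β raised C3 in A2 by 1.73 log2 units (SE 0.24, edgeR FDR 6.4e-05). In A1 the treated libraries all lay above the untreated ones, but the change of 0.77 log2 units (SE 0.23) missed the threshold (edgeR FDR 0.12). It passed with DESeq2 (adjusted p = 0.031), upper quartile scaling (edgeR FDR 0.04) and the 2 groups fitted alone (edgeR FDR 0.013). The fold response of A1 differed from that of Lkb1-/- cells by -0.46 (SE 0.33, edgeR FDR 1) and that of A2 by 0.51 (SE 0.33, edgeR FDR 1), both called with no low-count filter (edgeR FDR 0.027 and 0.005). Without the filter, calls over all genes in these tests rose from 5 to 141 and from 0 to 68.

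**Figure D1:**
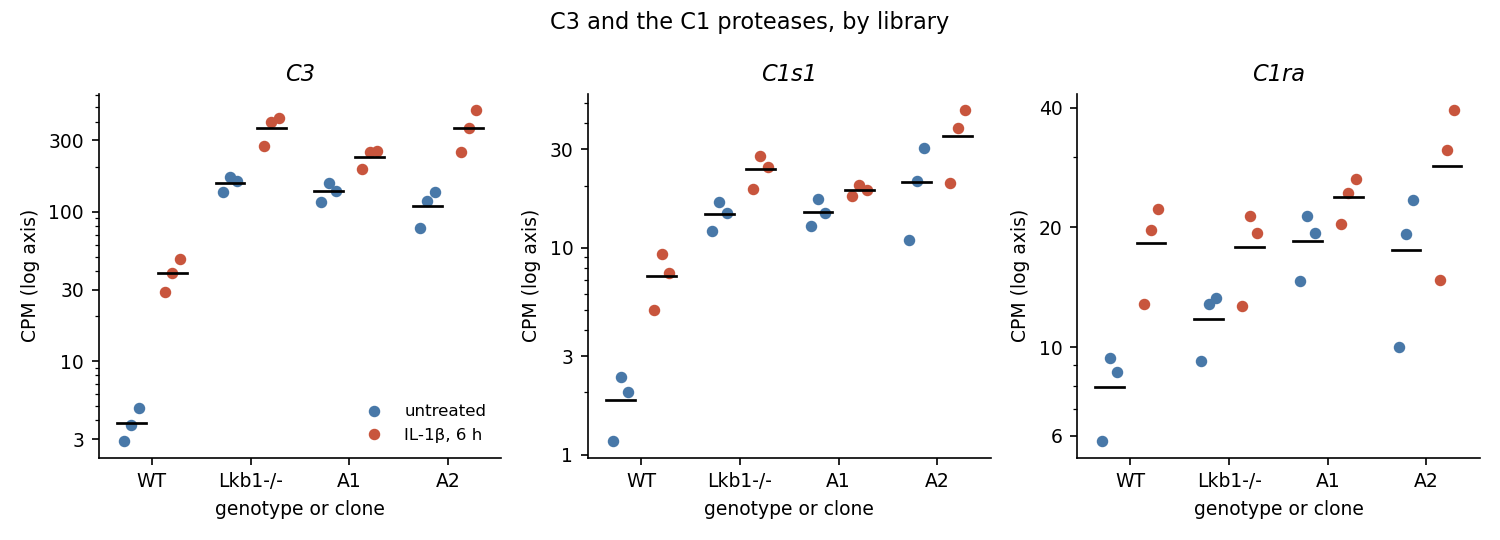
CPM of C3, C1s1 and C1ra in each of the 24 libraries, on log axes, by genotype or clone. Points are libraries, black lines group means, and colours mark untreated and IL-1β-treated cells. C3 rose from a mean of 3.82 CPM in untreated wild-type to 156 CPM in untreated Lkb1-/- MEFs, while C1ra group means run from 7.97 to 28.5 CPM.

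C1ra and C1s1, the C1 proteases, are neighbours on chromosome 6. C1ra lies at chr6:124512405-124523443 on the plus strand and C1s1 at chr6:124530345-124542359 on the minus strand, their 3′ ends 6901 bases apart. C1s1 read 1.16, 2.37 and 2.01 CPM in untreated wild-type MEFs and 12.1, 16.8 and 14.8 CPM in untreated Lkb1-/- MEFs. The groups did not overlap, and C1s1 rose 7.90-fold (log2 2.98, SE 0.36, edgeR FDR 4e-07). C1ra read 5.81, 9.42 and 8.69 CPM in untreated wild-type and 9.21, 12.8 and 13.3 CPM in untreated Lkb1-/- MEFs. These ranges overlapped, with a log2 difference of 0.57 (SE 0.33, edgeR FDR 0.16) that passed the threshold when the 2 groups were fitted alone (edgeR FDR 0.031) or with no low-count filter (edgeR FDR 3.3e-05). How far C1ra and C1s1 differed from each other in this response was not tested.

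Under IL-1β, wild-type C1s1 read 4.99, 9.34 and 7.55 CPM, a rise of 1.99 log2 units (SE 0.36, edgeR FDR 0.0026). Treated Lkb1-/- MEFs read 19.4, 27.8 and 24.8 CPM, above the untreated Lkb1-/- libraries, but the change of 0.72 (SE 0.31) did not pass the test (edgeR FDR 0.26). It passed with the 2 groups fitted alone (edgeR FDR 0.017) and without the filter (edgeR FDR 7.5e-08). The difference between these fold responses was -1.27 (SE 0.48, edgeR FDR 0.65), and it was called with no low-count filter (edgeR FDR 1.3e-08). Lkb1-/- MEFs stayed above wild-type MEFs under IL-1β by 1.72 log2 units (SE 0.32, edgeR FDR 9.9e-05).

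Wild-type C1ra under IL-1β read 12.9, 19.7 and 22.2 CPM, above every untreated wild-type library. The difference of 1.20 log2 units (SE 0.33) had an edgeR FDR of 0.064. It passed the threshold in 6 of 9 alternatives, among them DESeq2 (adjusted p = 0.027), upper quartile scaling (edgeR FDR 0.032) and the 2 groups fitted alone (edgeR FDR 0.047), and without wild-type IL-1β replicate 1 (edgeR FDR 0.045). Treated Lkb1-/- C1ra, at 12.7, 21.4 and 19.4 CPM, overlapped both the untreated Lkb1-/- and the treated wild-type libraries.

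In untreated A1, C1s1 read 12.8, 17.2 and 14.8 CPM, close to untreated Lkb1-/- cells (log2 difference 0.04, SE 0.31, edgeR FDR 0.95). Untreated A2 read 10.9, 21.1 and 30.5 CPM, a wider spread that covered the Lkb1-/- range. Under IL-1β, A1 read 17.8, 20.3 and 19.1 CPM and A2 20.5, 38.0 and 46.5 CPM. Treated A2 exceeded treated A1 by 0.88 log2 units (SE 0.31, edgeR FDR 0.034), a call lost when any 1 of 5 of the 6 libraries was left out (edgeR FDR 0.07 to 0.17), the exception being A2 IL-1β replicate 1. C1ra in the untreated clones read 14.6, 21.4 and 19.4 CPM in A1 and 10.03, 19.2 and 23.5 CPM in A2. Both clones were above untreated wild-type MEFs, A1 by 1.21 log2 units (SE 0.33, edgeR FDR 0.0035) and A2 by 1.14 (SE 0.33, edgeR FDR 0.005). Against Lkb1-/- MEFs neither clone passed the threshold in either treatment (log2 0.42 to 0.67, edgeR FDR 0.11 to 0.34). With no low-count filter C1ra was called higher in both clones and both treatments (edgeR FDR 1.6e-06 to 0.0031), as it was in untreated A1 with the 2 groups fitted alone (edgeR FDR 0.015).

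A C1s1 window is shown because C1s1 moved with genotype in the same direction as C3. It held 2 C/EBP-like matches and none of the other letters, while the C1ra window held 2 C/EBP-like matches as well. RefSeq gives C1s1 a second start further into the gene, whose window (chr6:124542322-124542571, not printed) overlaps this one and held 1 C/EBP-like and 1 κB-like match, the latter 35 to 26 bases before that start.

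C1s1, chr6:124542360-124542609, minus strand: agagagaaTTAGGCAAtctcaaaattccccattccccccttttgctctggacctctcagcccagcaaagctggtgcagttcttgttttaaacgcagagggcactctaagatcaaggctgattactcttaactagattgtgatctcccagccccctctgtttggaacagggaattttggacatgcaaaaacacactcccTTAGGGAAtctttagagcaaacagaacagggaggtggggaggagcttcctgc

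The paralogs C1rb and C1s2 lie nearby and share sequence with these genes, so reads could be split between them or dropped as multimapping, which took 7.69% to 9.06% of read pairs per library. C1s2 stayed at or below 2.30 CPM and rose in untreated Lkb1-/- MEFs (log2 3.83, SE 0.46, edgeR FDR 3.9e-07, or 4.72 without untreated wild-type replicate 2). C1rb stayed at or below 0.924 CPM and did not differ there at the threshold (log2 0.32, SE 0.54, edgeR FDR 0.65). Replicate 1 held the lowest C3, C1ra and C1s1 value in all 8 groups and the lowest Serping1 value in 7. Replicate 1 was lowest in at least 7 of the 8 groups for 19.9% of all genes tested. In every group it also had the largest share of reads assigned to no gene and of multimapping reads. What lay behind this was not tested.

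**Figure D2:**
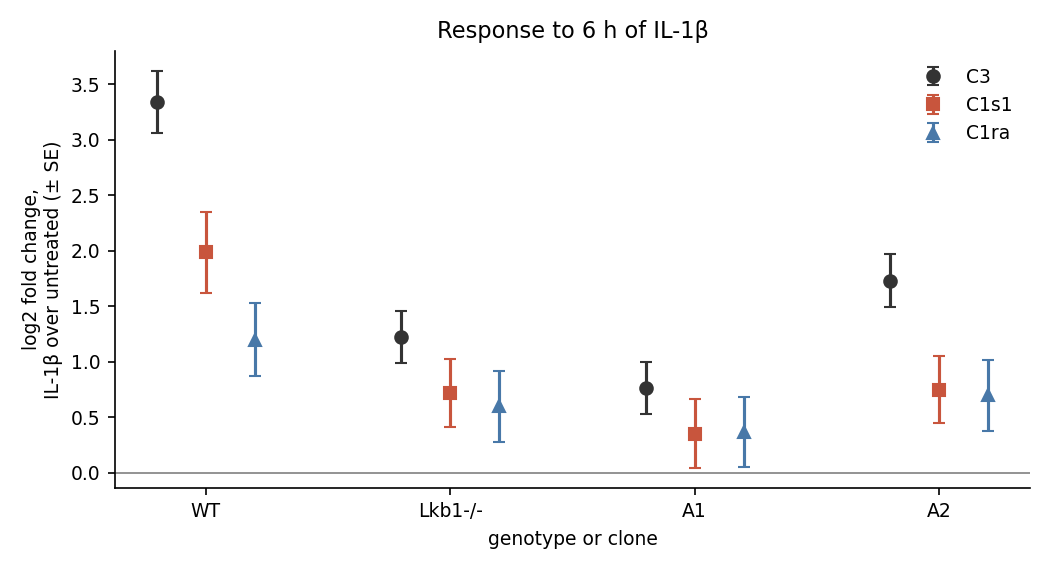
Log2 fold change of C3, C1s1 and C1ra after 6 h of IL-1β over untreated cells, with SE, in each genotype or clone (3 libraries per group). Wild-type MEFs had the largest fold for each of the 3 genes, 3.343, 1.99 and 1.20, and the C3 response was called different between Lkb1-/- and wild-type MEFs (edgeR FDR 0.008).

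C4b, the fourth component, which C1s cleaves, lies on chr17:34728380-34743882 (minus strand), in the major histocompatibility complex with its paralog C4a, C2 and Cfb. Untreated wild-type MEFs held 0.112, 0.207 and 0.0522 CPM, from 2 to 9 counts a library. Untreated Lkb1-/- MEFs held 2.26, 3.69 and 3.86 CPM, from 100 to 162 counts. The groups did not overlap, and the summed counts of 421 and 16 gave a ratio of 25.8 after scaling to depth (95% exact interval 15.7 to 45.5, counting error only). The fitted increase was 4.67 log2 units (SE 0.45, edgeR FDR 1.4e-08).

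C4b was not called with IL-1β in any genotype or clone by edgeR on the group means. Treated Lkb1-/- libraries read 1.22, 2.76 and 2.21 CPM, overlapping the untreated ones (log2 -0.66, SE 0.33, edgeR FDR 0.36). Treated wild-type libraries read 0.0987, 0.0934 and 0.129 CPM, within the untreated wild-type range. Lkb1-/- MEFs remained higher than wild-type under IL-1β (log2 4.24, SE 0.47, edgeR FDR 1.1e-07).

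The clones differed in C4b. A1 held 0.976, 0.888 and 1.01 CPM untreated and 0.883, 0.967 and 0.774 CPM under IL-1β, below every Lkb1-/- library of the same treatment. The falls from Lkb1-/- cells were -1.77 log2 units untreated (SE 0.35, edgeR FDR 0.00041) and -1.24 under IL-1β (SE 0.35, edgeR FDR 0.0086), the latter not called without Lkb1-/- IL-1β replicate 2 (edgeR FDR 0.061). A2 held 2.58, 5.70 and 5.13 CPM untreated and 2.01, 4.21 and 3.99 CPM treated, overlapping Lkb1-/- cells in both (edgeR FDR 0.31 and 0.1). A2 exceeded A1 by 2.22 log2 units untreated (SE 0.35, edgeR FDR 4.4e-05) and 1.95 treated (SE 0.35, edgeR FDR 0.0002). C4a, which shares much of its sequence with C4b, ranged from 1.17 to 4.24 CPM over all libraries and did not pass between Lkb1-/- and wild-type MEFs (log2 0.79, SE 0.34, edgeR FDR 0.056, untreated).

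Cfb, which encodes factor B, lies on chr17:34856374-34862518 (minus strand), 85 bases from C2. It failed the count filter and was not tested. It had 21 counts in all, in 9 of 24 libraries, and 5 at most in a library. Treated A2 held 1, 5 and 4 of these counts and treated Lkb1-/- MEFs 3, 0 and 2, while untreated wild-type and untreated Lkb1-/- libraries had none, where a count of 0 allows up to 3 counts a library. Of the 2825 exon bases of Cfb, 2246 (79.5%) are also exons of Gm20547 on the same strand, which had 0 counts in every library. Read pairs in shared exons are left uncounted as ambiguous, so the Cfb counts come from the remaining 579 bases and are no measure of its level.

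Cd55, which protects the cell's own surface, lies on chr1:130439027-130462744 (minus strand) and separated the genotypes most sharply. Its upstream window is shown for that reason. It held κB-like matches and a single CRE half-site, 23 to 19 bases before the start, and neither the C/EBP-like nor the STAT-like letters. Of these 3 printed windows only that of Cd55 held the CRE letters.

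Cd55, chr1:130462745-130462994, minus strand: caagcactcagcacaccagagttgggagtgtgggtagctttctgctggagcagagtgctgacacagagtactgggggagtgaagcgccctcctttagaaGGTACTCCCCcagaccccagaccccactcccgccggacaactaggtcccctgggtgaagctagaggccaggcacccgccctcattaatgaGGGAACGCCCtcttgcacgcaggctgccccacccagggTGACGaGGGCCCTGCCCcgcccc

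No Cd55 count was found in any of the 6 wild-type libraries. Untreated Lkb1-/- MEFs held 9.21, 8.96 and 12.9 CPM and treated ones 6.91, 7.46 and 9.60 CPM. Against a floor of 3 counts per wild-type library, Cd55 was at least 145-fold higher in untreated and at least 108-fold higher in treated Lkb1-/- MEFs (edgeR FDR 7.3e-10 and 1.5e-09). Its neighbour and paralog Cd55b had 0 counts in all 24 libraries.

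Both clones fell well below Lkb1-/- MEFs in Cd55 without reaching the wild-type level. A1 held 0.415, 0.408 and 0.345 CPM untreated and 0.343, 0.299 and 0.624 CPM with IL-1β. A2 held 1.23, 1.81 and 3.24 CPM untreated and 0.640, 1.13 and 1.81 CPM with IL-1β. No clone library overlapped the Lkb1-/- libraries. The untreated decrease was -4.73 log2 units in A1 (SE 0.41, edgeR FDR 1.6e-07) and -2.31 in A2 (SE 0.34, edgeR FDR 6.7e-05). Under IL-1β it was -4.24 in A1 (SE 0.40, edgeR FDR 4.7e-07) and -2.75 in A2 (SE 0.36, edgeR FDR 1.7e-05).

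A2 held more Cd55 than A1, by 2.42 log2 units untreated (SE 0.41, edgeR FDR 0.00022) and 1.49 treated (SE 0.42, edgeR FDR 0.012). The treated call was lost without A1 IL-1β replicate 2 (edgeR FDR 0.062) or A2 IL-1β replicate 3 (edgeR FDR 0.069). Cd55 did not pass the threshold with IL-1β in Lkb1-/- MEFs or either clone (log2 -0.81 to 0.11, edgeR FDR 0.24 to 0.97), but with no low-count filter it was called lower in A2 (log2 -0.80, edgeR FDR 0.023). In bulk RNA, fewer cells with Cd55 mRNA and less of it per cell cannot be told apart.

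**Figure D3:**
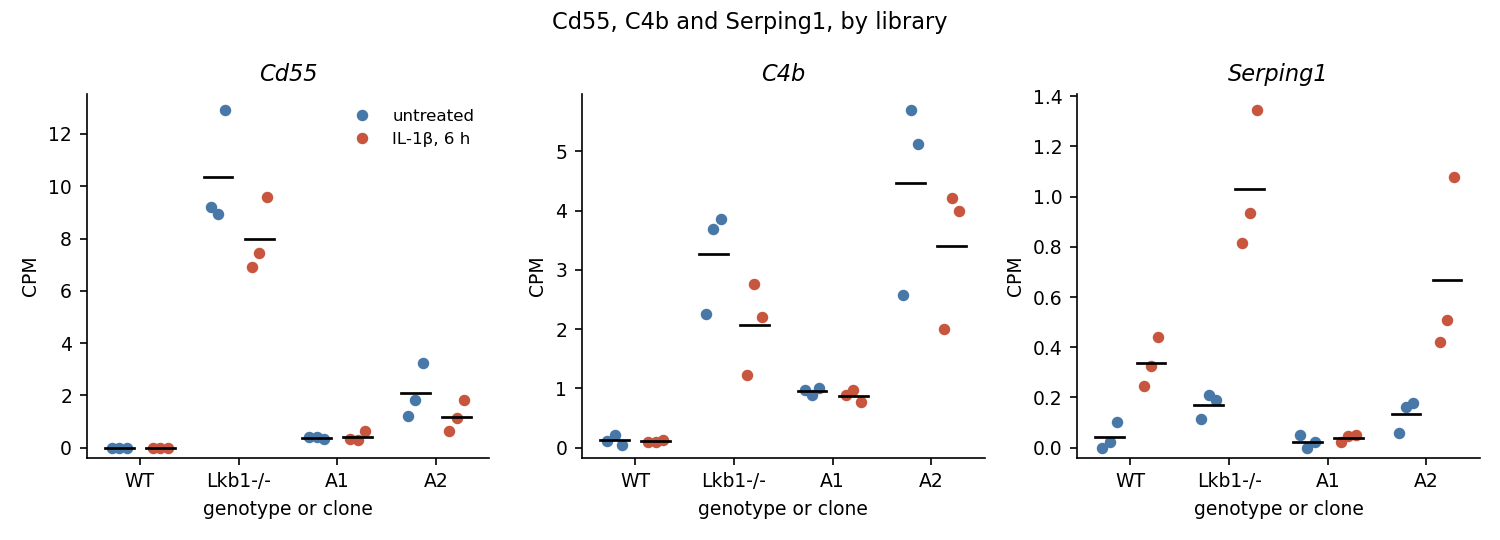
CPM of Cd55, C4b and Serping1 in each of the 24 libraries, on linear axes, by genotype or clone. Points are libraries, black lines group means, and colours mark untreated and IL-1β-treated cells. Cd55 stands at 0 in every wild-type library and averages 10.4 CPM in untreated Lkb1-/- MEFs, 0.389 in A1 and 2.09 in A2.

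Serping1, which encodes C1 inhibitor, lies on chr2:84765387-84775444 (minus strand) and was rare, with at most 56 counts in a library. Untreated wild-type libraries had 0, 1 and 4 counts (0, 0.0230 and 0.104 CPM) and treated ones 10, 14 and 17 (0.247, 0.327 and 0.440 CPM). The ratio of summed counts was 8.51 (95% exact interval 3.36 to 27.6), and the fitted rise was 2.99 log2 units (SE 0.68, edgeR FDR 0.017), or 2.396 without untreated wild-type replicate 1 and 4.57 without replicate 3. This call was lost without untreated wild-type replicate 1 (edgeR FDR 0.074) or 2 (edgeR FDR 0.12), or without treated wild-type replicate 3 (edgeR FDR 0.069), and with the 2 groups fitted alone (edgeR FDR 0.089). In Lkb1-/- MEFs the libraries went from 0.113, 0.209 and 0.191 CPM to 0.816, 0.935 and 1.34 CPM. That rise was 2.58 log2 units (SE 0.49, edgeR FDR 0.002).

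Lkb1-/- MEFs exceeded wild-type MEFs in Serping1 by 1.60 log2 units under IL-1β (SE 0.45, edgeR FDR 0.0042). The untreated difference rested on 22 against 5 counts, a ratio of 4.31 (95% exact interval 1.59 to 14.6), with an edgeR FDR of 0.025. The fitted 2.02 log2 units became 1.43 without untreated wild-type replicate 1 and 3.55 without replicate 3. The call was lost without untreated wild-type replicate 1 or 2 or untreated Lkb1-/- replicate 2 or 3 (edgeR FDR 0.062 to 0.11), and with counts taken without regard to strand (edgeR FDR 0.052).

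Clone A1 held almost no Serping1, with 2, 0 and 1 counts untreated and 1, 2 and 2 with IL-1β (0.0245, 0.0460 and 0.0499 CPM). Treated A2 held 0.419, 0.510 and 1.08 CPM. Treated Lkb1-/- MEFs had 25.5 times the Serping1 of treated A1 (95% exact interval 10.7 to 79.8, edgeR FDR 5.5e-06), and treated A2 had 16.2 times (95% exact interval 6.70 to 51.2, edgeR FDR 5.8e-05). Treated wild-type MEFs also lay above treated A1 (edgeR FDR 0.00078). IL-1β raised Serping1 in A2 from 0.0604, 0.162 and 0.176 CPM by 2.32 log2 units (SE 0.51, edgeR FDR 0.007), a call lost without A2 IL-1β replicate 3 (edgeR FDR 0.05) and with the 2 groups fitted alone (edgeR FDR 0.098). In A1 it did not pass (edgeR FDR 0.9), with 5 treated against 3 untreated counts, a ratio of 1.69 (95% exact interval 0.329 to 10.9). No difference between the IL-1β responses of clones and Lkb1-/- cells was called for Serping1 (A1 -1.88, SE 1.36; A2 -0.26, SE 0.75; edgeR FDR 1).

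Counted over the 6 tested genes, IL-1β raised 3 in wild-type MEFs (C3, C1s1 and Serping1), against 1.53% of all genes called higher. It raised 2 in Lkb1-/- MEFs and 2 in A2, C3 and Serping1 each time, against 2.65% and 2.81%. Serping1 passed the filter only through IL-1β-treated groups, so the counts that include it describe the list and are not a test of it. In A2, 4 genes were called higher with IL-1β without treated A2 replicate 1, C1ra and C1s1 being added, and 1 without treated A2 replicate 3. In A1 none was called by edgeR as reported, against 1.2% of all genes, with 1 at an unadjusted p under 0.05 and 1 by DESeq2, C3, which edgeR also called in the alternatives given above. Between responses, 0 of the 6 were called for A1 minus Lkb1-/- (0.0285% of all genes) and 0 for A2 minus Lkb1-/- (0.0%), with 0 at an unadjusted p under 0.05 and 0 by DESeq2 in each, which gave Serping1 no adjusted p. The macrophage marker sum was higher with IL-1β without overlap in wild-type MEFs, in Lkb1-/- MEFs (13.1 to 15.6 CPM untreated, 16.9 to 21.3 CPM treated) and in A2 (11.9 to 14.6 and 15.6 to 17.6 CPM), and overlapped in A1 (14.1 to 17.2 and 16.3 to 19.8 CPM). It moved with these counts, and its part in them was not tested. Of the list of 7, Cd14, Cd68 and Csf1r reached 856, 309 and 114 counts in a library, Lyz2 reached 20, and Ptprc, Adgre1 and Tyrobp reached 1 each.

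Compared with untreated Lkb1-/- MEFs, 3 genes were lower in A1 (C4b, Cd55 and Serping1) and 1 in A2 (Cd55), against 16.4% and 15.1% of all genes. Under IL-1β, 4 were lower in A1, C3 having joined the 3, and 1 in A2, against 17.3% and 15.8%. Serping1 passed the filter only through IL-1β-treated groups in which it was higher than in A1. The counts in this paragraph that include it, also those of A2 over A1, are therefore no test of the list. The untreated Serping1 call in A1 was lost without A1 replicate 2 (edgeR FDR 0.06) and with counts taken without regard to strand (edgeR FDR 0.1). Marker sums also separated clones from Lkb1-/- MEFs, and their part in these differences was not tested. The epithelial sum was 0.719 to 1.26 CPM in untreated Lkb1-/- MEFs, 0.317 to 0.529 CPM in A1 and 0.242 to 0.278 CPM in A2, and did not overlap under IL-1β either. The hepatocyte sum was 0.167 to 0.278, 0.456 to 0.896 and 0.0463 to 0.132 CPM in the same groups, and overlapped under IL-1β. The fibroblast sum was 6585 to 7586 CPM in untreated Lkb1-/- MEFs, higher in A1 in both treatments (9003 to 9915 CPM untreated), and overlapped Lkb1-/- MEFs in A2. Against Lkb1-/- MEFs, leaving out replicate 1 of A2 added calls in the other direction: untreated, C1ra and C1s1 were then higher in A2 (3 genes called in all), and with IL-1β C1ra, C1s1 and C4b were higher (4 in all). A2 exceeded A1 in 3 genes untreated (C4b, Cd55 and Serping1) and in 5 under IL-1β (C3 and C1s1 besides), against 15.8% and 15.1% of all genes called higher. The untreated Serping1 call rested on 18 against 3 counts, a ratio of 5.48 (95% exact interval 1.60 to 29.0, edgeR FDR 0.039). It was lost without A1 or A2 replicate 2 or 3 (edgeR FDR 0.092 to 0.14), and the fitted 2.33 log2 units became 3.20 without A1 replicate 1. It was also lost with counts taken without regard to strand (edgeR FDR 0.22) and with the newer quasi-likelihood method (edgeR FDR 0.068). The treated C3 call was lost with counts taken without regard to strand (edgeR FDR 0.05) and with the 2 groups fitted alone (edgeR FDR 0.051), and without A1 replicate 1 or 2 or A2 replicate 2 or 3 (log2 0.39 to 0.70, edgeR FDR 0.068 to 0.23). Leaving out a library moved the treated count the most in 4 cases, to 2 without A1 replicate 2 or A2 replicate 3 and to 3 without A1 replicate 1 or A2 replicate 2.

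Against wild-type MEFs, which serve as the control in each of these comparisons, untreated A1 and A2 each had 5 of the 6 genes higher (C3, C4b, C1ra, C1s1 and Cd55), against 30.3% and 32.7% of all genes. Under IL-1β, 4 were higher in A1 and 4 in A2 (C3, C4b, C1s1 and Cd55), against 30.1% and 32.0%, and Serping1 was lower in A1, against 26.9%. In treated A2, C1ra and Serping1 were added as higher with upper quartile scaling, with the replicate number as a block, or without treated A2 replicate 1. That made 6 genes called, against 61.5% (scaling) and 68.5% (block) of all genes in either direction. The newer quasi-likelihood method added Serping1 alone (61.2% of all genes). In untreated A2, Serping1 was added as higher with upper quartile scaling or the block (61.2% and 68.6%). C4b and Cd55 passed the filter through groups in which they were higher than in wild-type MEFs, and Serping1 through treated groups other than A1. These counts therefore describe the list and are not a test of it. The endothelial and epithelial marker sums also separated wild-type from the other libraries, and their part in these differences was not tested. Of the endothelial markers, Kdr reached 151 counts in a library, Pecam1 8, Tek 5 and Cdh5 1. Of the epithelial markers, Krt19 reached 111, Epcam 13, Krt8 10, Cdh1 7 and Krt18 4.

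A wider list of 48 other complement genes gave context, of which 20 passed the filter. In untreated Lkb1-/- MEFs 10 were higher and 3 lower than in wild-type MEFs (30.1% and 25.8% of all genes were called higher and lower), and their median log2 fold change was 0.82. Of the 10, C1s2, Cd59a, Cd59b, Susd4, Colec10, Cpn1 and Cd93 had 0 to 7 counts over the untreated wild-type libraries, and C8g had at most 16 in any library. These genes passed the filter through groups in which they were higher, so the counts and medians of this list are no test either. Under IL-1β 10 were higher and 3 lower (30.2% and 27.1% of all genes), with a median of 1.11. The initiators of the classical pathway other than C1r and C1s were not measurable, C1qa, C1qb and C1qc having at most 2 counts in a library. On the lectin side Masp1, a protease of that pathway, was abundant, at 31.2 to 225 CPM, and was higher in untreated Lkb1-/- MEFs (log2 0.85, SE 0.21, edgeR FDR 0.0015).

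The terminal components were near 0, C6, C7, C8a, C8b and C9 having at most 3 counts in a library and C8g at most 16. Of the 8 membrane regulators, 6 were tested, and in untreated Lkb1-/- MEFs 4 were higher (Cd55, Cd59a, Cd59b and Susd4) and 2 lower, against 30.1% and 25.8% of all genes. Each of these 4 had at most 2 counts over the untreated wild-type libraries and passed the filter through other groups, so that count is no test. Cd59a, which blocks the membrane attack complex, had 0 counts in untreated wild-type MEFs and a mean of 2.85 CPM in untreated Lkb1-/- MEFs, at least 39.9-fold higher. Unlike Cd55, Cd59a stood at 3.02 CPM in A1 and 3.03 CPM in A2. Cr1l, which encodes the rodent regulator Crry, fell from a mean of 46.6 to 23.3 CPM (log2 -0.997, SE 0.09, edgeR FDR 2.1e-09). Cd46, a cofactor for cleavage of C3b, fell from 1.35 to 0.356 CPM (log2 -1.91, SE 0.33, edgeR FDR 4.2e-05).

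Among receptors, C3ar1, which encodes the receptor for the C3 fragment C3a, went opposite to C3. It read 10.3, 6.12 and 6.68 CPM in untreated wild-type and 0.226, 0.0464 and 0.0238 CPM in untreated Lkb1-/- MEFs, a fall of -6.23 log2 units (SE 0.50, edgeR FDR 8.8e-10), or -7.72 without untreated Lkb1-/- replicate 1. Cd93, a cell-surface protein first described as a C1q receptor, rose from at most 0.104 CPM to 5.12, 3.62 and 5.69 CPM (log2 6.36, SE 0.65, edgeR FDR 3.2e-08), or 6.97 log2 units without untreated wild-type replicate 3. Cd93 was lower than in untreated Lkb1-/- MEFs by -4.82 log2 units in A1 (SE 0.55, edgeR FDR 8.8e-07, or -6.29 without A1 replicate 1) and -1.65 in A2 (SE 0.42, edgeR FDR 0.0047). Clu, which encodes clusterin, a fluid-phase inhibitor of the terminal complex, was higher than in untreated Lkb1-/- MEFs in A1 (log2 2.14, SE 0.30, edgeR FDR 1.2e-05) and A2 (log2 1.08, SE 0.30, edgeR FDR 0.0086).

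**Figure D4:**
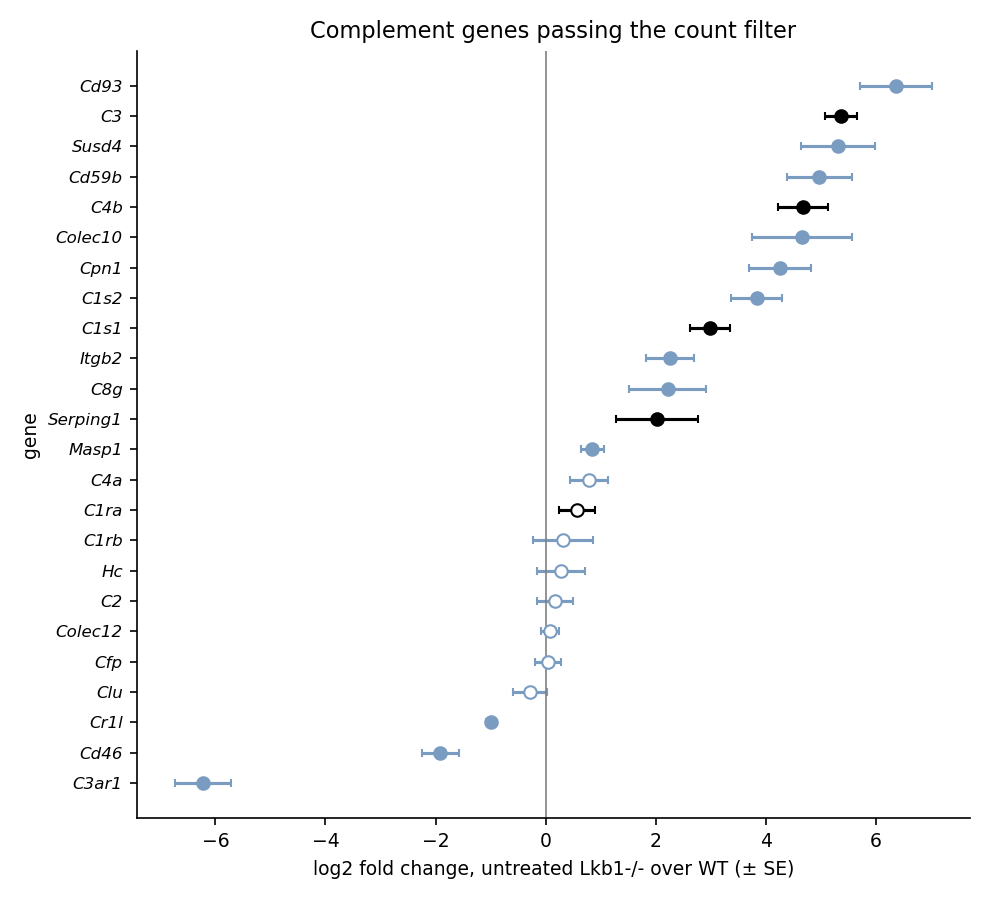
Log2 fold change, with SE, between untreated Lkb1-/- and wild-type MEFs for the 24 complement genes that passed the filter and had counts in untreated wild-type cells (Cd55 and Cd59a had none). Black points are genes of the set of 7 and blue points the other listed genes, filled where called by edgeR. Values run from -6.23 for C3ar1 to 6.36 for Cd93, with C3 at 5.36.

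Over the 24 libraries, log2 CPM of C3 followed that of C1s1 most closely within the set (r = 0.96), and C4b followed Cd55 (r = 0.88), while C1ra and Cd55 had the lowest value (r = 0.20). Among 9366 genes with a mean log2 CPM above 3, those most alike to C3 were Dram1 (r = 0.976) and Gng2 (r = 0.962), and those to C1s1 were Dram1 (r = 0.971) and Adamts7 (r = 0.964). Tsc2 (r = 0.985) and Stmn1 (r = 0.978) were most alike to C4b, and Smarca2 (r = 0.979) and Prdx2 (r = 0.977) to Cd55. For C1ra they were St5 (r = 0.912) and Gbp2 (r = 0.905), and for Serping1 Znrf1 (r = 0.892) and Ppard (r = 0.873). The points share genotypes and libraries, so these are descriptions.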

How the data were processed

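RNA was sequenced from 24 MEF libraries. The authors trimmed reads with Trim Galore 0.6.0, aligned them with STAR 2.7.8a to mm10 and deposited raw counts per gene for 3 strand settings, of which the second-strand setting was used here (it held 95.5% to 96.0% of stranded counts). The labels and the study name different library kits. Symbols and positions came from GENCODE M21 (GRCm38) and promoter windows from RefSeq (GRCm38.p6), which held C3, C1ra, C1s1 and Cd55, 4 of the 7 genes. Reads assigned to no gene, 26.7% to 34.4% per library, were left out.

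Counts were fitted with edgeR 4.0.16 in R 4.3.3 (quasi-likelihood F-test, older form, a mean per group over all 24 libraries, filterByExpr, TMM). P-values were adjusted by Benjamini-Hochberg over the 17522 genes tested, with a threshold of 0.05. CPM are TMM-scaled, and fold changes carry SE. The script was tested on simulated counts. A permutation test of 3 against 3 libraries cannot go below p = 0.1. Genes were named by rule: the 7, Stk11, Crtc2, their paralogs, the listed complement genes past the filter and, for each gene, the 2 genes of highest Pearson r (log2 CPM, prior count 2). The genes and lists were chosen with earlier results of these data known. Alternatives covered strand, scaling, filter, tool, replicate block, groups fitted and each library left out. Intervals cover counting error only.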

Additional observations from a re-analysis of the deposited data

Results flagged for a closer look

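The fold response of C3 to IL-1β differed between genotypes by a test of the difference itself: it was -2.12 log2 units in Lkb1-/- minus wild-type MEFs (SE 0.36, edgeR FDR 0.008). Mean C3 went from 3.82 to 38.6 CPM in wild-type cells, while Lkb1-/- cells started at 156 CPM and reached 364 CPM. All 3 treated libraries exceeded all 3 untreated ones in both genotypes. No group had enough libraries for a test of single outlying libraries.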

How the results depend on the processing

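Of 303 recomputed counts of genes called among the 6 tested, 260 stayed within 1.5 times the reported count. Single values were recomputed for 58 results of these genes, those called as reported and a few chosen ones that missed the threshold. None of these 839 values changed sign (783 kept their side of the threshold, 38 lost a call and 18 gained one). Only the chosen misses could gain a call here, so this tally leaves out calls gained by other results. Requiring at least 10 counts in every library removed C4b, Cd55 and Serping1. That left 2 genes called between Lkb1-/- and wild-type MEFs untreated and 2 with IL-1β, against 61.5% and 62.7% of all genes. IL-1β called 1 gene in Lkb1-/- cells and 1 in A2 (6.32% and 8.43% of all genes). Against Lkb1-/- (untreated, IL-1β) there were 0 and 1 for A1 (43.6% and 45.0%) and 0 and 0 for A2 (40.6% and 41.1%). Against wild-type there were 3 and 2 for each clone (60.5% and 62.2% for A1, 66.0% and 66.3% for A2). A2 against A1 gave 0 and 2 (41.6% and 39.4%). Without a filter on low counts, IL-1β called 4 in Lkb1-/- MEFs, 2 in A1 and 5 in A2. Of all 36796 genes in that fit, IL-1β called 3.88%, 2.47% and 4.47% in these lines. A2 differed from Lkb1-/- in 4 untreated and 4 with IL-1β, and untreated A2 from A1 in 5, against 15.1%, 15.3% and 15.5%. The responses differed in 2 (Lkb1-/- minus wild-type), 1 (A1 minus Lkb1-/-) and 1 (A2 minus Lkb1-/-). Over all genes these response calls rose from 43, 5 and 0 to 347, 141 and 68 (0.943%, 0.383% and 0.185%). C3 with IL-1β in A1, log2 0.77 as reported and 0.79 in that fit, went from missing the threshold to an edgeR FDR of 6.9e-20. The cause was not tested. IL-1β in A1 called 1 gene with upper quartile scaling, DESeq2 or the 2 groups alone, against 2.85%, 3.27% and 3.0% of all genes. In A2 it called 1 with DESeq2, which gave Serping1 no adjusted p, or with the 2 groups alone, against 7.83% and 1.54%.

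With the replicate number as a block, all 6 genes were called between untreated Lkb1-/- and wild-type MEFs, C1ra (log2 0.57, edgeR FDR 0.0022) being added. C1ra in wild-type (edgeR FDR 9e-06) and C1s1 in Lkb1-/- MEFs (edgeR FDR 0.0071) were then called with IL-1β. IL-1β called 5 genes in Lkb1-/- MEFs (C1ra and C1s1 added as higher, C4b as lower, edgeR FDR 0.029). It called 1 in A1 (C3, edgeR FDR 7.7e-06) and 5 in A2 (C1ra and C1s1 added as higher, Cd55 as lower, edgeR FDR 0.015). C1ra was called higher than in Lkb1-/- MEFs in A1 (edgeR FDR 0.00068 untreated, 0.011 with IL-1β) and in A2 (0.0044 and 0.00075). A2 differed from Lkb1-/- in 4 untreated (C1s1 also added as higher, C3 as lower, edgeR FDR 6.6e-05) and 4 with IL-1β (C1s1 and C4b also added as higher), and the Lkb1-/- and wild-type responses in 2 (C1s1 added, edgeR FDR 0.027). Calls rose over all genes too under the block, from 55.9% to 64.3% between untreated Lkb1-/- and wild-type MEFs, from 4.74% to 14.8% for IL-1β in Lkb1-/- MEFs, from 1.99% to 9.61% in A1 and from 5.68% to 17.9% in A2. Against Lkb1-/- MEFs they rose in A2 from 32.3% to 45.9% untreated and from 32.8% to 46.6% with IL-1β. For the difference between Lkb1-/- and wild-type responses they rose from 0.245% to 1.77%. Same-numbered libraries tended to deviate together: 69 of 84 such pairs had a correlation over 0.1 (lowest 0.0355, median 0.222). The median was -0.115 for pairs with other numbers, and 23 of 24 libraries correlated best with their own number. The labels name no shared batch, so what the number stands for is not known, and the fit without the block was kept as the reported one. Leaving out 1 library gave 1 to 4 genes for IL-1β in A2, 1 to 3 for untreated A2 against Lkb1-/-, 1 to 4 for the same with IL-1β, 2 to 4 for A1 against Lkb1-/- with IL-1β, and 2 to 5 for A2 against A1 with IL-1β. Serping1 rests on at most 56 counts a library.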
